A study of Mus musculus with 6 samples.

Results

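Transcripts of the Xlr genes, the X-linked lymphocyte-regulated family, were followed in mouse cerebral cortex, in samples labelled as Cux2 knock-outs and in their controls. Members were all non-control probes whose gene symbol in the array files begins with Xlr, dim probes included. These were 8 of the 41174 probes on the array and 5 of its 27962 gene symbols. The filter on dim probes, which kept a probe whose signal was flagged well above background throughout the 3 arrays of either group, was passed by 5 of the 8 probes and 3 of the 5 symbols. The 8 probes are 3 for Xlr4b, 1 for Xlr3b, 2 for Xlr, 1 for Xlr5c and 1 for Xlr5d, and no probe on the array carries the symbol Xlr3a, Xlr3c, Xlr4a or Xlr4c.

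Expression was read in 6 samples of dissected cerebral cortex of male mice, each on an Agilent 1-colour array of its own. The 3 knock-out samples, numbered 53, 48 and 54, have the genotype label Cux2-/-. The 3 controls, numbered 15, 62 and 16, are titled WT, but their genotype label reads Cux2+/-, so they may carry 1 altered allele, and the labels do not settle this. The sources used here give neither strain, nor age, nor the structure of the altered allele. No label says outright that the samples are separate animals, so a p-value covers only the spread among these 6 samples, which may be technical.

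The Xlr genes belong to a family of proteins related to SYCP3, a structural component of the synaptonemal complex that holds paired chromosomes together in meiosis. In the mouse, Xlr3, Xlr4 and Xlr5 genes lie interleaved in a cluster on the X chromosome, and Xlr3b, Xlr4b and Xlr4c are known as imprinted genes in brain, with higher expression from the X inherited from the mother. Cux2 is a CUT-domain homeobox transcription factor of upper-layer cortical neurons, and Xlr3b and Xlr4b are known from work on Cux2 mutant cortex as genes linked to dendritic spines. A male has a single X, which comes from the mother.

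Copies within Xlr3 and within Xlr4 are alike in sequence, so which copies a probe reads is uncertain. The sequence of each probe on the array was not used here. The probe that the array calls Xlr3b is assigned to Xlr3c by its accession in the RefSeq gene table of GRCm38.p6, so its signal is named Xlr3b below without a claim as to the copy. RefSeq promoter windows of GRCm38.p6, from 250 bases before the annotated transcript start to 50 bases after it, were available for 10 Xlr genes. The windows of Xlr3b and Xlr3c were identical at 264 of 280 aligned bases (94.3%), and those of Xlr4b and Xlr4c at 98.6% of 278. Xlr4a was as close to Xlr4b (98.3% of 293), and Xlr3a less close to Xlr3b (87.8% of 254). The windows of Xlr3b and Xlr4b, of the copy aligned closest to each, and of Xlr, whose probes did not share the pattern of the others, are printed 5′ to 3′ along the strand of the gene. Capitals mark the letters CCAAT, which in these 5 windows lie on the printed strand.
Xlr3b (chrX:73191929-73192228, plus strand): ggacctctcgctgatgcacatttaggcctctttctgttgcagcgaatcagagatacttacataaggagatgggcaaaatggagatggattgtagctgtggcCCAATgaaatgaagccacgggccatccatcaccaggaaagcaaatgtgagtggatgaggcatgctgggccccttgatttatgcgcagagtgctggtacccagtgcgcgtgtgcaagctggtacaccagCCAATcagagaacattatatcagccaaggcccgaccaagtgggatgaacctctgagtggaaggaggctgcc
Xlr3c (chrX:73265341-73265640, minus strand): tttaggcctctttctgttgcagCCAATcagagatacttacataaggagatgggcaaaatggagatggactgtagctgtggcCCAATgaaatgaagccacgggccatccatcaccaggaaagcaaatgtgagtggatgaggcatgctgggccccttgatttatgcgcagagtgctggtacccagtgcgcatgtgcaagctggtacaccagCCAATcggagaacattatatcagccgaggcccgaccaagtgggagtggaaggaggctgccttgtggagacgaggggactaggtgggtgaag
Xlr4b (chrX:73214083-73214382, plus strand): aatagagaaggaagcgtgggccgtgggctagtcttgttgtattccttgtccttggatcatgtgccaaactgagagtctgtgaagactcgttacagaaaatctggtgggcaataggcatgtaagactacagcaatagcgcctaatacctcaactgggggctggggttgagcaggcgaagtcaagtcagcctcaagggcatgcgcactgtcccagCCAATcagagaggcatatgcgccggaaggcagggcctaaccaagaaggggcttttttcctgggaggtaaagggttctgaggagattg
Xlr4c (chrX:73243081-73243380, minus strand): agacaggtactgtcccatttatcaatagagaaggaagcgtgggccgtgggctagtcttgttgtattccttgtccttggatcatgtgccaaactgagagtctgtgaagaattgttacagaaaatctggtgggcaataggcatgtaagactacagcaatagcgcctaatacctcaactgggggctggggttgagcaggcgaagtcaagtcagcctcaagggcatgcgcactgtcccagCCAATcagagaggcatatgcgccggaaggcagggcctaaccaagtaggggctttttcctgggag
Xlr (chrX:53797657-53797956, minus strand): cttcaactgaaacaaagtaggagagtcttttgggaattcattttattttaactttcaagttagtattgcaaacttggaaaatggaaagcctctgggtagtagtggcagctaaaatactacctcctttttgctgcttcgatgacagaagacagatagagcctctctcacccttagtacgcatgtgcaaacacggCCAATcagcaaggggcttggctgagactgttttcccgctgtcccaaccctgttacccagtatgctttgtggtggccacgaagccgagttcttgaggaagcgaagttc

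The windows of Xlr3b and Xlr4b were otherwise unlike, and their longest shared run was 15 bases. The longest run shared by all 6 Xlr3 and Xlr4 windows was the 14-base block CAGCCAATCAGAGA, which holds CCAAT. It was picked for being shared and then searched on both strands in all 32851 windows of this length. It was present in 16 windows (0.0487%), which belong to 15 genes. By its choice these include Xlr3a, Xlr3b, Xlr3c, Xlr4a, Xlr4b and Xlr4c, and 10 windows of other genes hold it too. The block began 24 bases before the annotated start in Xlr3b and 231 bases before it in Xlr3c. In the printed windows these are not corresponding stretches of the copies. In full the block was absent from the windows of Xlr5a, Xlr5b, Xlr5c and Xlr. The Xlr window did share 9 bases of it, GCCAATCAG, with those of Xlr3b and Xlr4b. CCAAT on its own, the letters from which the Cux relative CCAAT displacement protein takes its name, was in 37.4% of all windows. It occurred 4 times in the window of Xlr3a, 3 times in Xlr3c, 2 times in Xlr3b and 1 time each in Xlr4a, Xlr4b, Xlr4c, Xlr5a, Xlr5b and Xlr. At least 3 copies were present in 3.37% of all windows. Of the other motifs searched on both strands, of the type that CUT-domain proteins are known to prefer, ATCGAT was in 0.925% of all windows and in no Xlr window. ATCAAT was in 7.54% of all windows and, among Xlr genes, in that of Xlr4c, 230 bases before the start. The window of Xlr4b begins inside the matching stretch, so the motif could not be seen there. These matches describe letters in a window and say nothing of binding.

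**Figure D1:**
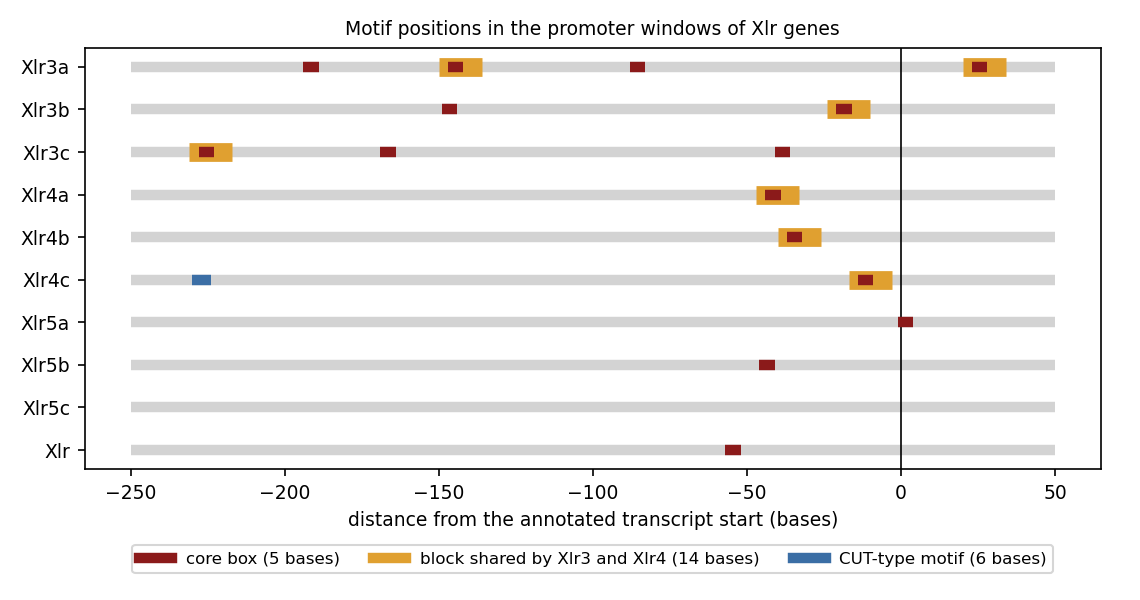
Positions of searched motifs in the RefSeq promoter windows of 10 Xlr genes, in bases from the annotated transcript start (0). Red marks the 5-base core box, orange the 14-base block and blue the 6-base CUT-type motif. The full block is present in the 6 Xlr3 and Xlr4 windows and in none of the other 4.

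Xlr4b was measured by a probe (A_51_P457244) that was well above background on all 6 arrays. Its processed signal, a background-subtracted intensity, was 1023, 289.9 and 1194 in controls 15, 62 and 16, and 1418, 3694 and 3076 in knock-outs 53, 48 and 54. As log2 of that signal minus the 75th percentile of the same array, the scale used from here on, the values were -0.05, -1.61 and 0.22 in the controls and 0.35, 1.82 and 1.37 in the knock-outs. All 3 knock-outs lay above all 3 controls, with control 62 far below the other two controls and knock-outs 48 and 54 far above the rest. The lowest knock-out, 53, was 0.13 above the highest control, 16, which is a 1.10-fold gap.

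The mean difference for Xlr4b was 1.66 on the log2 scale (SE 0.56, 95% interval 0.32 to 3.01), or 3.16-fold, from -0.48 ± 0.99 in controls to 1.18 ± 0.75 in knock-outs (SD, n = 3 each). It did not pass the test of limma with Benjamini-Hochberg adjustment over the 25504 probes tested (adjusted p = 0.525, unadjusted p = 0.0228). A two-sided exact permutation test of the 3 against 3 arrays gave p = 0.1, the smallest this design can give. By size the difference ranked 35th among the probes higher in knock-outs. Without control 62 it was 1.10, and without knock-out 53 it was 2.08. In bulk tissue, a change in the number of cells that make a transcript and a change in RNA per cell cannot be told apart.

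The Xlr3b probe (A_51_P490070) was also well above background on all 6 arrays. Its processed signal was 365, 112 and 476 in controls 15, 62 and 16, and 535, 1364 and 1281 in knock-outs 53, 48 and 54. On the scaled log2 scale this was -1.54, -2.99 and -1.11 against -1.06, 0.38 and 0.10. The order of the arrays was that of Xlr4b, with control 62 lowest, knock-out 48 highest, and knock-out 53 only 0.05 above control 16. The mean difference was 1.69 (SE 0.56, 95% interval 0.34 to 3.04), or 3.22-fold, from -1.88 ± 0.98 to -0.19 ± 0.76 (SD, n = 3 each), and it did not pass (limma adjusted p = 0.521, unadjusted p = 0.0216). The exact permutation p, two-sided, was 0.1, again the smallest possible. Without control 62 the difference was 1.13. With a normexp background correction and scaling to the 75th percentile, knock-out 53 lay 0.43 below control 16 and the groups overlapped. With normexp and quantile normalization, knock-out 53 lay 0.04 above control 16.

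A second Xlr4b probe (A_51_P457237) was close to background. It was flagged well above background on 1 of 3 arrays of controls and on 3 of 3 of knock-outs, so it entered the test only through the group where it was brighter. Its values were -5.63, -5.92 and -4.98 in controls 15, 62 and 16, and -4.75, -3.70 and -4.38 in knock-outs 53, 48 and 54. The groups did not overlap, and control 62 was again lowest and knock-out 48 again highest. The difference was 1.24 (SE 0.33, 95% interval 0.45 to 2.02, limma adjusted p = 0.397), and it was 0.27 with normexp and quantile normalization. Normexp here adds an offset of 50, which shrinks log2 differences at processed signals as low as the 14.6 to 80.3 of this probe. With normexp and the 75th percentile its groups overlapped. The third Xlr4b probe (A_52_P176026) was well above background on no array, with processed signals of 3.41 to 11.0.

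**Figure D2:**
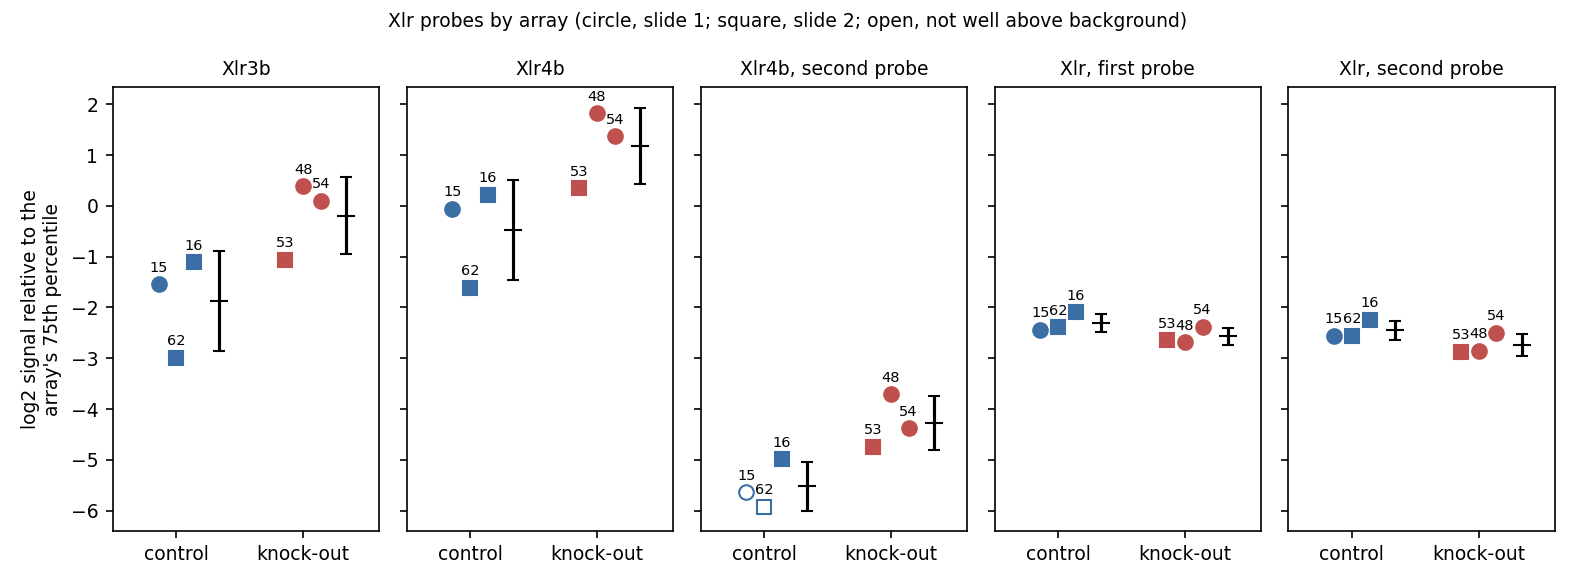
Log2 signal relative to the 75th percentile of each array for the 5 tested Xlr probes, with control arrays in blue and knock-out arrays in red, numbered by sample, and mean ± SD (n = 3) as black bars. For Xlr3b and both Xlr4b probes the knock-out arrays lie above the controls by a narrow margin (0.05 to 0.24), while for both Xlr probes the groups overlap; heights are to be compared within a panel, since probes differ in brightness.

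Xlr, the founding member of the family, was measured by 2 probes, both well above background on all 6 arrays. The first (A_52_P33841) read -2.43, -2.39 and -2.10 in controls 15, 62 and 16 and -2.65, -2.69 and -2.38 in knock-outs 53, 48 and 54. The groups overlapped, since knock-out 54 lay above controls 15 and 62. The difference was -0.27 (SE 0.13, 95% interval -0.58 to 0.05; limma adjusted p = 0.702), with an exact permutation p of 0.3. The second Xlr probe (A_51_P514351) read -2.56, -2.56 and -2.24 in the controls and -2.87, -2.85 and -2.49 in the knock-outs. Its groups overlapped as well, and the difference was -0.29 (SE 0.14, 95% interval -0.63 to 0.06; limma adjusted p = 0.703). Control 62, the lowest array for Xlr3b and Xlr4b, was not low for either Xlr probe. Both differences turned to 0.09 with normexp and the 75th percentile, so no direction is read for Xlr.

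The Xlr5 members were not well above background on any of the 6 arrays, and no fold is given for them. Processed signals were 2.66 to 7.54 for the Xlr5c probe (A_51_P262471) and 6.23 to 27.9 for the Xlr5d probe (A_52_P439509). With the third Xlr4b probe, these make up the 3 of 8 members that were not tested.

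In all, 0 of the 5 tested Xlr probes passed the limma test at an adjusted p of 0.05, against 33 of all 25504 probes tested (0.129%), which were 0.051% higher and 0.0784% lower. That background count was itself unsteady, at 2 without control 16, 7 without control 15, 12 without knock-out 54 and 60 without knock-out 53. The Xlr count was 0 in every alternative fit run. At an unadjusted p under 0.05, 3 of the 5 were higher in knock-outs, where 3.89% of all tested probes were, and 0 were lower, where 4.07% were. The 3 are the Xlr3b probe and the pair for Xlr4b. The pair shares a gene symbol, so it is not 2 separate measurements, and its second probe entered through its bright group. The same 3 had all knock-out arrays above all controls, as did 6.45% of tested probes, and no Xlr probe had all of them below, as did 6.62%.

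The Xlr3b and Xlr4b intervals do not rest on the spread of these probes alone, since limma draws each probe's variance toward that of all tested probes. For probes with a spread this large, that narrows the SE and the interval. Intervals from the spread of each probe alone were not computed. Within a group, the SD was 0.88 for both probes, which lies at the 98.9th percentile of tested probes, where the median was 0.14. Among controls alone, Xlr4b ranged 3.55-fold from its highest to its lowest array and Xlr3b 3.67-fold after scaling. Among knock-outs the ranges were 2.77-fold and 2.71-fold, so each group held a range about as large as the 3.16-fold and 3.22-fold differences between group means. The Xlr probes, by contrast, had within-group SDs of 0.18 and 0.20.

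**Figure D3:**
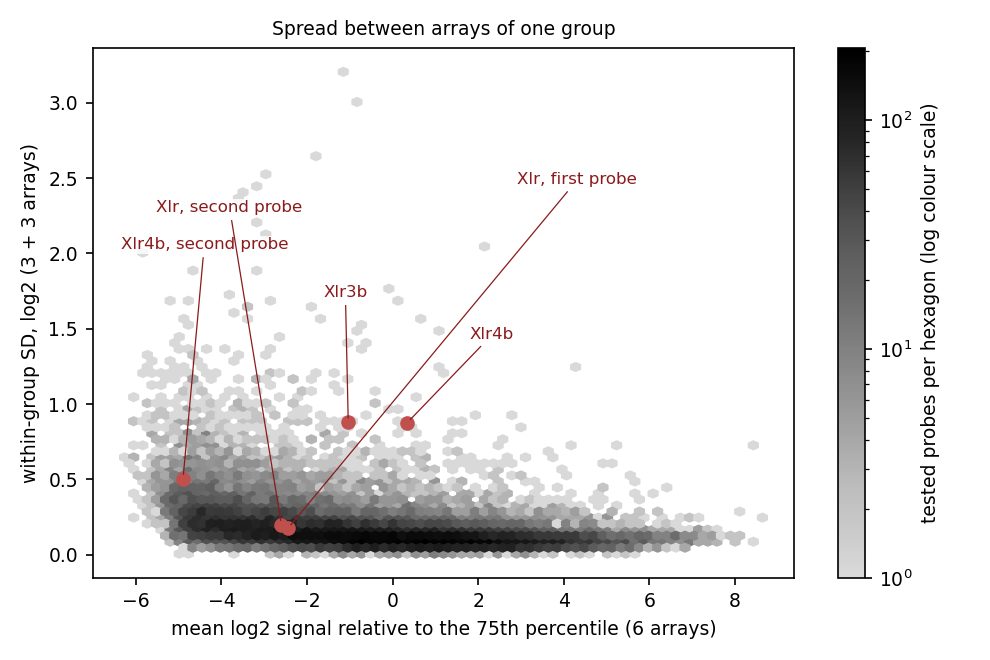
Within-group SD of log2 signal (y axis) against mean scaled log2 signal (x axis) for the 25504 tested probes, shaded by their number on a log scale, with the 5 tested Xlr probes in red. Xlr3b and Xlr4b sit at an SD of 0.88, near the top of all tested probes, and both Xlr probes sit within the bulk.

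Xlr3b and Xlr4b deviated together from array to array. On each array the difference between the Xlr4b and Xlr3b values was nearly the same, and it spanned 0.22 log2 units over the 6 arrays, while each probe alone spanned 3.43 and 3.37. This within-array difference was 0.03 lower in knock-outs than in controls (exact permutation p = 0.7, two-sided). Whether the probes read separate transcripts was not tested. The difference between Xlr4b and the first Xlr probe, in contrast, spanned 3.73. It was 1.93 higher in knock-outs (exact permutation p = 0.1, the smallest possible), and scaling between arrays cancels in it.

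**Figure D4:**
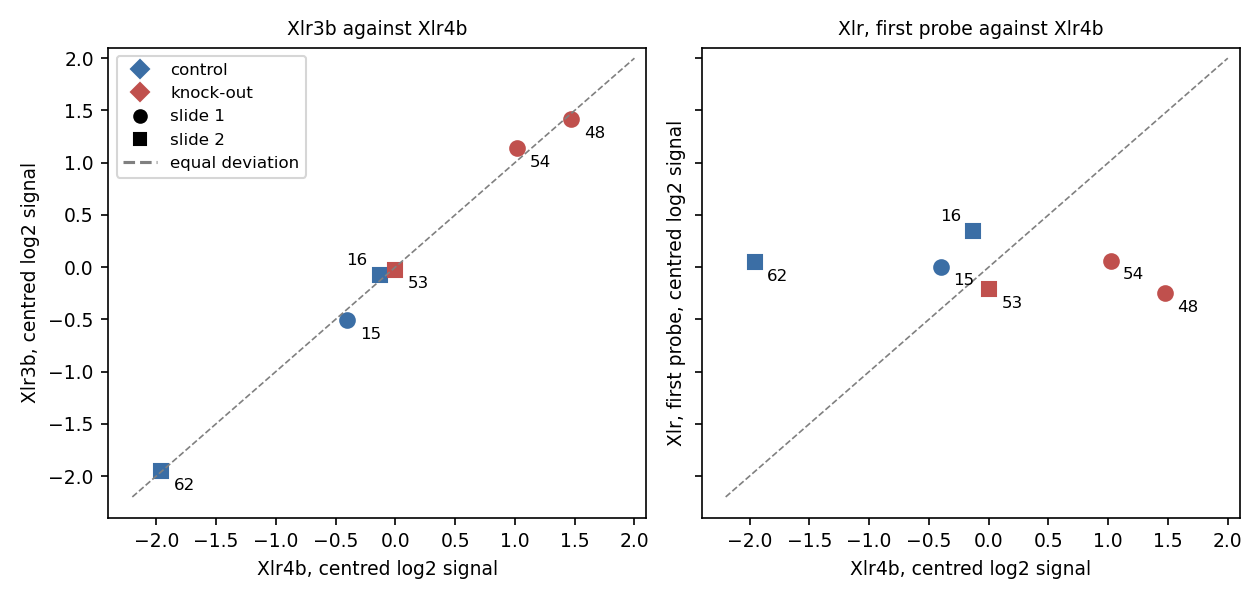
Centred log2 signal of Xlr3b (left) and of the first Xlr probe (right) against that of Xlr4b, 1 point per array, blue for controls and red for knock-outs, with circles for slide 1 and squares for slide 2; the dashed line is equal deviation. The 6 arrays follow the line for Xlr3b, from control 62 to knock-out 48, and do not for Xlr.

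The 6 arrays lay on 2 slides, which did not hold the groups evenly. Slide 1 held control 15 with knock-outs 48 and 54, and slide 2 held controls 62 and 16 with knock-out 53. Within slide 1 the Xlr4b difference was 1.65, and within slide 2 it was 1.05. For Xlr3b the values were 1.78 and 0.99, and for the second Xlr4b probe 1.59 and 0.71. With slide as a block the difference was 1.35 for Xlr4b (SE 0.51) and 1.39 for Xlr3b (SE 0.52; limma adjusted p = 0.618 for both). Over all alternative fits the adjusted p ranged from 0.343 to 0.988 for Xlr4b and from 0.337 to 0.988 for Xlr3b. Slide 2 held the lowest and the highest control of Xlr4b and its lowest knock-out.

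**Figure D5:**
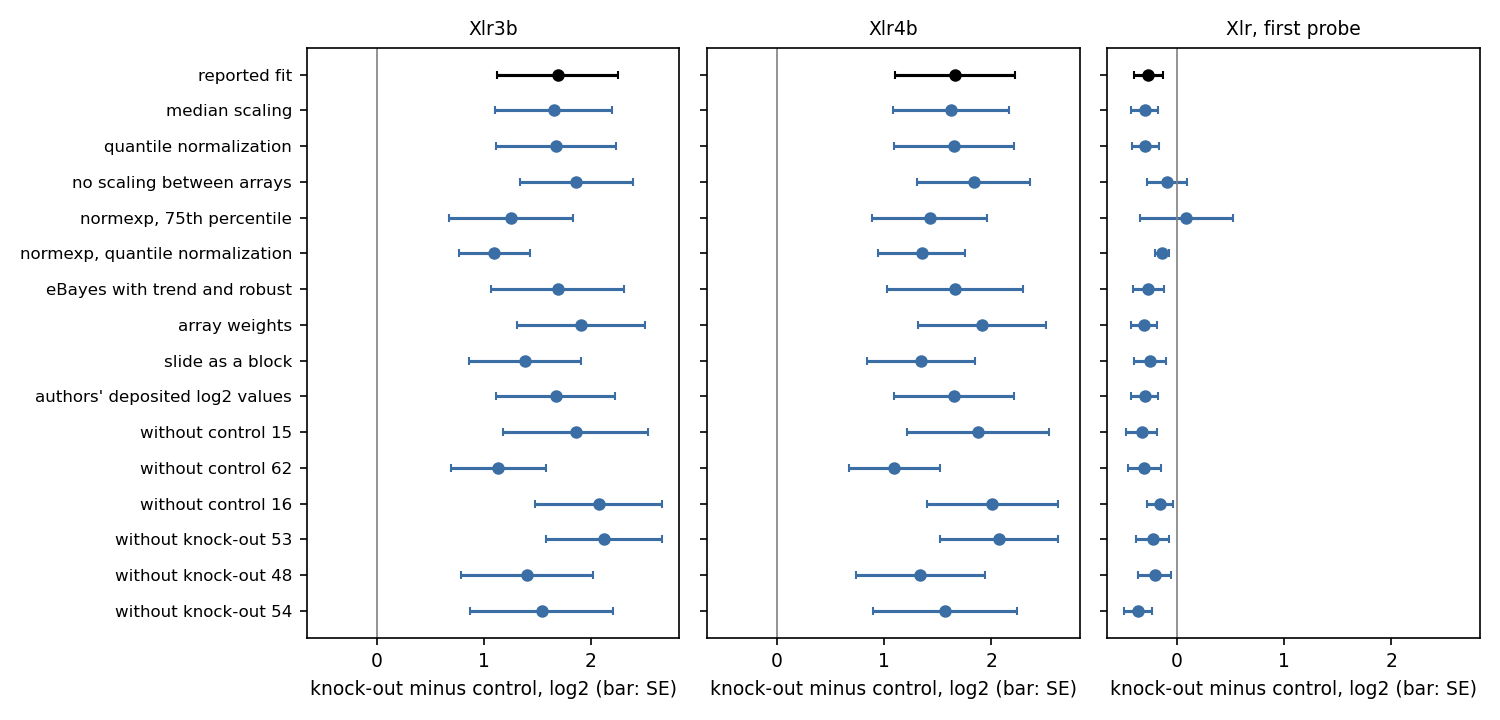
Knock-out minus control difference in log2 units with its SE, for Xlr3b, Xlr4b and the first Xlr probe, under the reported fit (black) and alternative settings (blue). Xlr3b and Xlr4b stay above 0 in each setting drawn, with the lowest leave-one-out values without control 62 (1.13 and 1.10), whereas Xlr lies below 0 except with normexp and the 75th percentile.

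The measured genes that flank the Xlr3, Xlr4 and Xlr5 cluster had differences of -0.20 to 0.17, beside 1.69 and 1.66 for Xlr3b and Xlr4b. F8a, which lies between Xlr4b and Xlr4c in the gene table and encodes a huntingtin-associated protein, differed by 0.09 (SE 0.09; limma adjusted p = 0.869), from 0.57 ± 0.11 in controls to 0.67 ± 0.08 in knock-outs (SD, n = 3 each). The 2 probes of DXBay18, also inside the cluster, differed by -0.10 and -0.25 (limma adjusted p = 0.916 and 0.784). Spin2d, which lies next to Xlr3b, was not well above background on any array. Of the 20 nearest named genes, 10 on each side, 18 were on the array and 13 were measured. By limma 0 of the 13 passed and 0 had an unadjusted p under 0.05, against 0.128% and 8.27% of all 17121 genes tested. Of the 13, 3 had a difference above 0 and 10 below, and their median was -0.01, as was that of all genes tested, where 48.2% lay above 0. The lowest value belonged to Haus7, a subunit of the augmin complex of the spindle, and the highest to Nsdhl, an enzyme of cholesterol synthesis. Gabra3, a GABA-A receptor subunit, differed by -0.10, and Dusp9, a MAP kinase phosphatase, by -0.07.

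Relatives of Xlr and other genes of meiosis were mostly too dim to test in cortex. Of 15 genes of the SYCP3 and Xlr superfamily and the synaptonemal complex, 11 were on the array and 2 were measured. Syce1, a central element protein of that complex, differed by 0.61 (SE 0.26) and Syce2 by -0.03 (SE 0.07), with 0 of the 2 past the threshold or at an unadjusted p under 0.05 (limma adjusted p = 0.636 and 0.952). Of 24 germline genes that DNA methylation is known to silence in other tissues, 8 were measured. By limma 0 of the 8 passed and 1 had an unadjusted p under 0.05, against 0.128% and 8.27% of all genes tested. Rhox5 and Stag3 entered only through the controls, where they were brighter, so no direction is read from the list, whose median was -0.02 with them and 0.05 over genes well above background on all 6 arrays. The gene with the unadjusted p under 0.05 was Brdt, a testis bromodomain protein, with a difference of 0.37 (limma adjusted p = 0.416). Rhox5, an X-linked homeobox gene of the reproductive tract, differed by -2.06 (SE 0.87; limma adjusted p = 0.626) and carried that flag on 3 of 3 control arrays and 1 of 3 knock-out arrays. Stag3, the meiotic cohesin subunit, differed by -0.71, with that flag on 1 of 3 knock-out arrays, and Ddx4, the germ cell RNA helicase, by -0.63.

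The factors that act on methylated or silenced DNA were measured in nearly full number. Of 30 DNA methylation and chromatin repressor genes 29 were measured, and 14 had a difference above 0 and 15 below, with a median of -0.03. By limma 0 passed and 0 had an unadjusted p under 0.05, against the same 0.128% and 8.27% of all genes. Dnmt3l and 1 other gene entered only through the controls. The lowest p-values belonged to Sin3a, a corepressor scaffold, at -0.19, to Cbx3, a heterochromatin protein, at -0.16, to Daxx, the histone chaperone that partners ATRX, at -0.15, and to Dnmt3l, a cofactor of DNA methylation, at -0.22. Among genes of the dendritic spine and postsynapse, 32 of 34 were measured, 17 above 0 and 15 below, with a median of 0.01. Again 0 passed by limma and 0 had an unadjusted p under 0.05, beside those shares of 0.128% and 8.27%. Nlgn3, a postsynaptic adhesion protein, differed by -0.20, and Actn2, an actin crosslinker, by -0.48. Shank3, a postsynaptic scaffold, differed by 0.21 and Ppp1r9b, the spine protein spinophilin, by -0.10.

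Cux2 itself gave no check of the knock-out label. The Cux2 probe that the array calls Cutl2 read -0.03, 0.27 and 0.03 in controls 15, 62 and 16 and -0.04, -0.05 and -0.01 in knock-outs 53, 48 and 54, a difference of -0.12 (SE 0.10; limma adjusted p = 0.838). A second Cux2 probe, called 1700051K22Rik on the array, differed by 0.08 (SE 0.15; limma adjusted p = 0.947). The sources used here do not say whether either probe lies in the deleted or altered stretch. Of 7 CUT-domain homeobox genes 6 were measured, 4 above 0 and 2 below, with a median of 0.15, 0 called and 0 with an unadjusted p under 0.05 for the brightest probe of each gene (0.128% and 8.27% of all genes). Cux1, the close relative of Cux2, differed by 0.15 at its brightest probe and by 0.72 and 0.21 at its other probes. At the probe with 0.72 (SE 0.19), limma gave adjusted p = 0.396 and unadjusted p = 0.0073. There all 3 knock-outs lay above all 3 controls, as for 6.45% of tested probes. An unadjusted p under 0.05 with a higher value was found for 3.89% of tested probes. Onecut2, another factor of this class, differed by 0.15.

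Marker signal was summed for cell types that might hold Xlr transcripts. Such a sum leans on its brightest markers and is not a count of cells. All 8 markers of cortical excitatory neurons were well above background on all 6 arrays. So were 23647 of the 41174 probes on the array, so this flag alone does not place the samples in cortex. Of 12 lymphocyte markers 4 were so, while Cd3g and Cd8a were not on any array, and the sum of the list relative to the 75th percentile was 0.520 to 0.773 in controls and 0.580 to 0.635 in knock-outs. Of 6 germ cell markers 4 were well above background on all arrays, with sums of 0.865 to 0.930 in controls and 0.797 to 0.974 in knock-outs. Both lists overlapped between the groups. The 6 microglia markers were all well above background, and their sum was 17.3 to 20.3 in controls and 13.9 to 14.6 in knock-outs. The sums did not overlap and were lower in knock-outs, the other direction from Xlr3b and Xlr4b. Among single tested probes, 6.62% had all knock-outs below all controls. Of the 6 markers, 0 passed the limma test, beside 0.128% of all genes, and their part in the Xlr result was not tested.

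The genes nearest to the array pattern of Xlr3 and Xlr4 were sought by a measure of likeness over 13593 genes. Centred log2 values of a gene were set against the mean of those of the 3 tested Xlr3 and Xlr4 probes. That mean includes both tested Xlr4b probes, of which the second entered the test only through its bright group. The measure was the root mean square difference over the 6 arrays, and its median over genes was 0.987. The nearest were Cbr1, a carbonyl reductase, at 0.398, Rec114, a meiotic recombination gene, at 0.450, Serpina3n, a serine protease inhibitor, at 0.456, Stbd1, a glycogen-binding protein, at 0.499, and Wdfy1, an endosomal protein, at 0.524. Their differences between knock-out and control were 1.28, 1.98, 1.16, 1.43 and 0.91, as a description of genes chosen for this pattern. Rec114, with the largest of these, was dim, at a mean of -4.97 in controls, though well above background on all 6 arrays. Centred values of Wdfy1 were as high in control 16 (0.45) as in the knock-outs (0.43 to 0.47), and those of Stbd1 varied little among controls (-0.80 to -0.57), where the Xlr mean ran from -1.65 to -0.10. The Xlr probes stood at 1.06 each on this measure, farther than the median gene. The measure counts the size of deviations as well as their direction, so genes that vary little also score far from the pattern.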

How the data were processed

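Per the file headers, scans were read by Agilent Feature Extraction 9.1.3.1, and the deposited processed signal is an intensity with background and spatial trend removed per array. A further table deposited by the authors holds log2 values. Its columns share a median of 6.76 and follow the processed signal of the same array, but the sources used here state no normalization for it. For the Xlr probes its values nearly equalled those of the quantile normalization run here, as 10.2546 and 10.2548 for Xlr4b in control 16. It served as an alternative, but not as one separate from quantile normalization. Of 45018 spots, 1639 controls were left out, as were 120 flagged outlier values, and no spot was saturated. Spots were averaged per probe, and log2 of the signal minus the 75th percentile of the array was fitted by limma 3.58.1 (lmFit, then eBayes; R 4.3.3, package data.table of version 1.17.8) over 25504 probes. P-values were adjusted by the Benjamini-Hochberg method, and intervals are 95%. A gene is represented by its brightest tested probe. Probes were named by accession (22951), symbol (6659) or synonym (3109) in RefSeq's gene list, and 8455 kept the name on the array.

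Members and gene lists were chosen with earlier results of these data known. Named genes are all Xlr probes, Cux1 and Cux2, up to 4 members of lowest p from each list, genes inside the cluster, and the 5 most like Xlr3 and Xlr4. Genes inside the cluster were added after their values were seen. A listed gene is not reported here. Alternatives changed the scaling, background correction (normexp, offset 50), filter, variance model, array weights, slide block, source table and arrays left out. The fit was checked on simulated data with known changes. Promoter windows were compared with Biopython 1.88 and plots drawn with matplotlib 3.10.9 in Python 3.11.15.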

Additional observations from a re-analysis of the deposited data

How the results depend on the processing

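Filters and the variance model cannot move a group difference. Over the other alternatives, some of which change background and scaling together, the Xlr4b difference was 1.05 to 2.08 and that of Xlr3b 0.99 to 2.12, within-slide values included. The 2 Xlr probes turned from below 0 to 0.088 and 0.087 with normexp and the 75th percentile, the cause of which was not tested. The count of all probes past the threshold was 0 with normexp and the 75th percentile, 3 with a filter of at least 1 array, 2 with no filter and 15 with the slide block, and 2 to 60 when 1 array was left out. With median scaling 13 called probes were higher and 36 lower (26.5% higher), against 13 and 20 (39.4%). Leaving the arrays unscaled moved the median of all probes to 0.17. Without scaling the list medians were 0.15 for chromatin repressors, 0.18 for spine genes, 0.16 for X neighbours and 0.32 for CUT factors, whose median was 0.064 with the slide block. With median scaling they were -0.064, -0.030 and -0.049 for the first 3. With normexp and the 75th percentile they were 0.067 for chromatin repressors and -0.060 for spine genes, and with normexp and quantile normalization 0.036 for the former. A filter on all 6 arrays gave 0.016 for chromatin repressors, a filter on at least 1 array gave -0.034 for the SYCP3 list, no filter gave 0.61 for germline genes, and the percentile over probes bright on all arrays gave 0.0060 for X neighbours. Leaving out 1 array gave -0.045 to 0.030 for chromatin repressors, -0.022 to 0.011 for spine genes, -0.055 to 0.010 for X neighbours, 0.018 to 0.18 for CUT factors, -0.16 to 0.12 for germline genes and 0.14 to 0.42 for the SYCP3 list. No paired analysis was possible because the groups share no sample number.

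The 3 arrays of each group limit the precision. Intervals ran from 0.32 to 3.01 for Xlr4b and from 0.34 to 3.04 for Xlr3b. The variance that limma draws toward all tested probes made them narrower than the wide spread of these probes alone would. Probes near background, as the second Xlr4b probe, depend on the background correction and its offset. The control genotype is given in conflicting ways, the position of the Cux2 probes is unknown here, and which Xlr copies a probe reads was not tested.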
